A study of Mus musculus with 11 samples.

Results

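Transcripts of the cerebellum were compared between mice without food for 16 h and mice with free access to chow. The comparison uses 5 of the 11 arrays of a study that also measured the hypothalamus, and all 34999 probes of the platform. Each of these arrays was chosen by its label alone, as cerebellum and as fasted or fed. Wild-type female SV/129 mice aged 10 weeks were used. Food was removed from 6 mice at the onset of the dark phase and 6 mice kept theirs, water was free to both, and the tissue was taken the next morning. Slices of cerebellum were frozen, and RNA of the 6 mice of a feeding state was pooled into 1 sample. The fed pool gave 3 arrays and the fasted pool 2, because 1 further array of the fasted pool had failed quality control. Repeats of a pool share all biological variation, so the p-values below compare 2 pools of RNA and not feeding states, and the difference between mice was not measured. CodeLink whole genome bioarrays carry 1 colour: biotin-labelled cRNA of 1 sample is bound by spotted oligonucleotides and read with a streptavidin dye.

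The series table gives ratios. For all 34999 probes the middle value of the 3 fed cerebellum arrays was 1, so a value of 2 on a fasted array means 2 times the signal of the median fed array. Such ratios keep no signal level. The cell types of the slices could therefore not be checked against their markers, no probe could be recognised as near background, and no level can be compared between genes. After each array was divided by its own median, the difference of mean log2 ratios, fasted minus fed, is called the change and is given with the standard error of the limma fit. A probe is called at a Benjamini-Hochberg adjusted p under 0.05 over all probes. The median within-group SD over probes was 0.0808 log2. Between 26 and 47 probes of each fed array and 71 and 52 of the fasted arrays lay under a ratio of 0.1, at which values were floored.

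The cerebellum holds most neurons of the brain in a small number of well described types: Purkinje cells, which form the only output of its cortex, the densely packed granule cells that excite them, several inhibitory interneurons, the neurons of the deep nuclei, and the Bergmann glia that wrap Purkinje dendrites. It is best known for the coordination of movement. Overnight fasting in a mouse lowers blood glucose, insulin and leptin, raises corticosterone and free fatty acids, and brings the liver to make ketone bodies, which the brain can burn beside glucose.

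Of the 34999 probes, 4912 (14.0%) were called between the pools. They comprised 2262 probes higher in the fasted pool (6.46%) and 2650 lower (7.57%). A change of at least 1.5-fold was seen in 1396 called probes (3.99%), 610 of them higher and 786 lower, and a change of at least 2-fold in 315. The arrays of the groups did not overlap for 17500 probes (50.0%), so a lack of overlap on its own marks little. Taken as genes, with the probe of smallest residual SD standing for a gene with several probes, 2630 of 18048 genes were called (14.6%), of which 697 were higher (3.86%) and 1933 lower (10.7%). Of these genes 692 changed at least 1.5-fold (3.83%), and for 9389 genes the arrays of the groups did not overlap (52.0%). The median change of all genes was -0.02.

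These counts depended on single arrays. Without fed replicate 1, 0 probes were called by limma, with a smallest adjusted p = 0.0501 and 8145 probes at an unadjusted p under 0.05, so that each call of the 5-array fit sits on the far side of the threshold there. Without fed replicate 2, fasted replicate 1, fasted replicate 2 or fed replicate 3, 1145, 1189, 2268 and 3175 probes were called. A fit over all 11 arrays of the study, which takes its error from more arrays, called 7302 probes for the same contrast, and called 2493 of the 2630 genes again. With 1 cerebellum array left out of that larger fit it called 4540 to 6416 probes, and 1898 to 2329 of the 2630 genes. Counts of called genes below are followed by how many were also called in the 11-array fit and how many with 1 cerebellum array left out of it.

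The division of calls into higher and lower depended on the scaling. Higher probes made up 46.1% of the calls with each array divided by its median and 15.7% of 8564 calls with each array divided by its 75th percentile. The median change of all genes was -0.15 with that scaling. Quantile normalization, which forces the 5 arrays to the same spread although the fed arrays vary less around 1 than the fasted arrays do, left 0 calls, with a smallest adjusted p = 0.133 by limma and 2224 probes at an unadjusted p under 0.05, and put Prl at 2.22. Small differences in the median of a gene group are therefore read against the median of all genes, and groups whose median has another sign under the 75th percentile are named as such. The 75th percentile scaling moved the medians of the groups and of all genes by almost the same amount. Such a change of sign therefore does not set a group apart from all genes.

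Probes with a gene symbol and probes without one moved in different directions. Of the 21590 probes with exactly 1 symbol, 3053 were called, 838 higher and 2215 lower, so 27.4% of their calls were higher. Of the 13409 probes with no symbol or several, 1859 were called, 1424 higher and 435 lower, which makes 76.6% higher. Their median changes were -0.02 and 0.05. Nothing in the files says what the unnamed probes measure, and the genes described here cover the named share of the platform only.

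**Figure D1:**
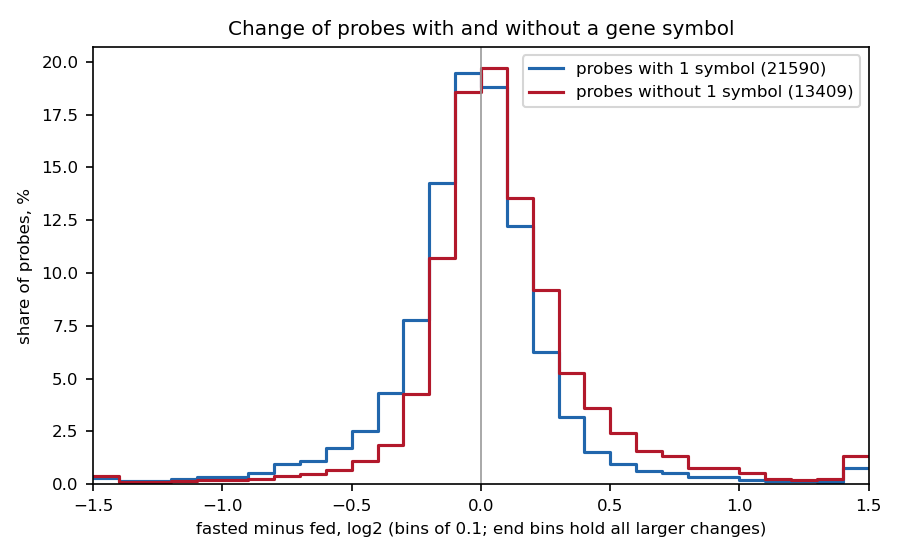
Share of probes (vertical axis, %) by change, fasted minus fed in log2 (horizontal axis, bins of 0.1, the end bins holding all larger changes), for the 21590 probes with 1 gene symbol (blue) and the 13409 without (red). The red line lies above the blue one to the right of 0 and below it just to the left of 0, as the medians of -0.02 and 0.05 state.

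Genes were ranked by the size of their change among called genes whose arrays did not overlap, had no ratio under 0.1 and lay within 0.5 log2 in each group, a rule that leaves out unsteady genes such as Apoa4. By it the largest rise was that of Prl, which encodes prolactin, a hormone of the anterior pituitary that drives milk production. Its ratios were 1.00, 1.10 and 0.99 on the fed arrays and 8.72 and 8.55 on the fasted arrays. The rule required that these groups not overlap and that each lie within 0.5 log2. The change was 3.07 ± 0.07 log2, or 8.39-fold (adjusted p = 0.00521). Pomc, which encodes the precursor of corticotropin and of the melanocortins, ranked after Prl and Dnajc22. It stood at 1.04, 1.00 and 0.987 in the fed pool and at 2.62 and 2.42 in the fasted pool, a change of 1.32 ± 0.06, or 2.49-fold (adjusted p = 0.00521). Leaving out any 1 array kept the changes between 3.04 and 3.12 for Prl and between 1.26 and 1.38 for Pomc. The adjusted p of both was 0.0501 without fed replicate 1.

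Both genes are products of the anterior pituitary, and its other genes were read beside them. Of 18 measured genes of the pituitary list, 4 were higher and 0 lower, against 3.86% and 10.7% of all genes. The others called were Ghrhr, the receptor for growth hormone releasing hormone, at 0.44 ± 0.08, and Gnrhr, the receptor for gonadotropin releasing hormone, at 0.36 ± 0.05, of which a second probe read 0.01. In the 11-array fit 3 of the 4 were called, and 3 with any 1 cerebellum array left out, while Gnrhr was not. That fit also called 1 gene of the list lower. Dlk1 of this list read -1.56 on a called probe and 0.02 on the probe that stands for the gene, so the count of 0 lower depends on the choice of probe. Genes of other pituitary hormones were not called, a set named here after its values were seen. Cga, the alpha subunit shared by the glycoprotein hormones, stood at 0.09, Lhb, the beta subunit of luteinizing hormone, stood at 0.10, Tshb at 0.06 and Fshb at 0.02. The median of the list was 0.04, and -0.09 with the 75th percentile scaling, and with the mean of all probes of a gene 3 of its genes were higher and 2 lower. A summed level of the list cannot be formed from ratios, and the part of pituitary RNA in these changes was not tested. In bulk tissue, fewer cells of a type and less RNA per cell cannot be told apart, here and in each result below.

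Of the 15 genes with the largest rises by this rule, 13 besides Prl and Pomc rose between 1.96-fold and 3.61-fold. Sertad2, a transcription cofactor gene, had ratios of 1.01, 1.00 and 0.880 in the fed pool and 2.39 and 2.25 in the fasted pool, a change of 1.27 ± 0.08. Etnppl, an enzyme gene of astrocytes that breaks down phosphoethanolamine, had ratios of 1.02, 1.00 and 0.953 in the fed pool and 2.00 and 2.03 in the fasted pool, a change of 1.02 ± 0.05. Slc25a27, a mitochondrial carrier of the uncoupling protein family, read 1.00, 1.11 and 0.999 against 2.01 and 2.04, a change of 0.97 ± 0.07. That no fed array overlapped a fasted one was required by the rule for these genes. The second Slc25a27 probe read 0.02 and was not called.

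Radx, whose protein binds single-stranded DNA at replication forks, rose by 1.28 ± 0.11. Itgad, an integrin subunit of leukocytes, rose by 1.15 ± 0.09 and Adat2, a subunit of a tRNA deaminase, by 1.11 ± 0.07. Dnajc22 (1.85 ± 0.20), Smim40 (1.30 ± 0.15), Gm16157 (1.27 ± 0.14), Gm2762 (1.15 ± 0.12), Muc6, a gastric mucin gene (1.08 ± 0.13), 6620401J10Rik (1.04 ± 0.09) and D330022H12Rik (1.01 ± 0.05) complete the group. Dnajc22 varied more than the others, with 1.33, 1.00 and 0.997 in the fed pool and 3.41 and 4.62 in the fasted pool. Of these 15 genes 12 were called in the 11-array fit, where Dnajc22 (adjusted p = 0.269), Muc6 (0.265) and Gm16157 (0.0651) were not. With any 1 cerebellum array left out of that fit 11 were called, since Gm2762 was then not called either, with an adjusted p of up to 0.181. The 5-array fit with 1 array left out called Gm16157 and Muc6 in 2 of 5 cases and called 0 of the 15 without fed replicate 1. A second probe of Gm16157 read -0.22.

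The 15 largest falls by the same rule ran from 2.61-fold to 4.16-fold. Cyp20a1, a cytochrome P450 gene with no established substrate, stood at 1.02, 1.00 and 0.915 in the fed pool and at 0.250 and 0.221 in the fasted pool, a change of -2.06 ± 0.08 (adjusted p = 0.00521). Pcsk6, a convertase that cleaves precursor proteins on the secretory route, read 1.00, 1.01 and 0.960 against 0.307 and 0.302, a change of -1.70 ± 0.05. Its second probe read -0.14 and was not called. Hacd3, a dehydratase of fatty acid elongation, read 0.976, 1.07 and 1.00 against 0.333 and 0.319, a change of -1.64 ± 0.06. By the rule, the groups of these genes do not overlap and each group lies within 0.5 log2.

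Several of the other genes in this group sit in membranes or on signalling routes. Slc30a5, which loads zinc into the early secretory pathway, fell by 1.64 on the log2 scale, from 1.01, 1.00 and 0.903 to 0.305 and 0.319. Bmpr1a, a receptor for bone morphogenetic proteins, fell by 1.44, and S1pr1, the receptor for sphingosine 1-phosphate, by 1.46. Sgpp1, the phosphatase that removes the phosphate of that same lipid, fell by 1.44, with ratios of 0.997, 1.09 and 1.00 against 0.377 and 0.381. Prkar2a, a regulatory subunit of protein kinase A, fell by 1.69, and Socs5, of the suppressor of cytokine signalling family, by 1.51. Atp2a3, a calcium pump of the endoplasmic reticulum, fell by 1.43. Its fed arrays spread more, with fed replicate 3 at 0.776.

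Gatm, which encodes the first enzyme of creatine synthesis, fell by 1.51, with ratios of 1.02, 1.00 and 0.961 in the fed pool and 0.339 and 0.359 in the fasted pool. Eef2, the elongation factor that moves the ribosome along the messenger, read 1.00, 1.07 and 0.914 against 0.391 and 0.368, a change of -1.39 ± 0.08, or 2.61-fold. Syt9, a synaptotagmin, fell by 1.52, Trim35 by 1.39 and Plekhb2 by 1.39. A second probe of Syt9 read -0.12 and was not called, while the second probe of Plekhb2 was called too, at -0.42. All 15 were called in the 11-array fit, and with any 1 cerebellum array left out of it. In the 5-array fit without fed replicate 1 their adjusted p lay between 0.0501 and 0.0585.

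**Figure D2:**
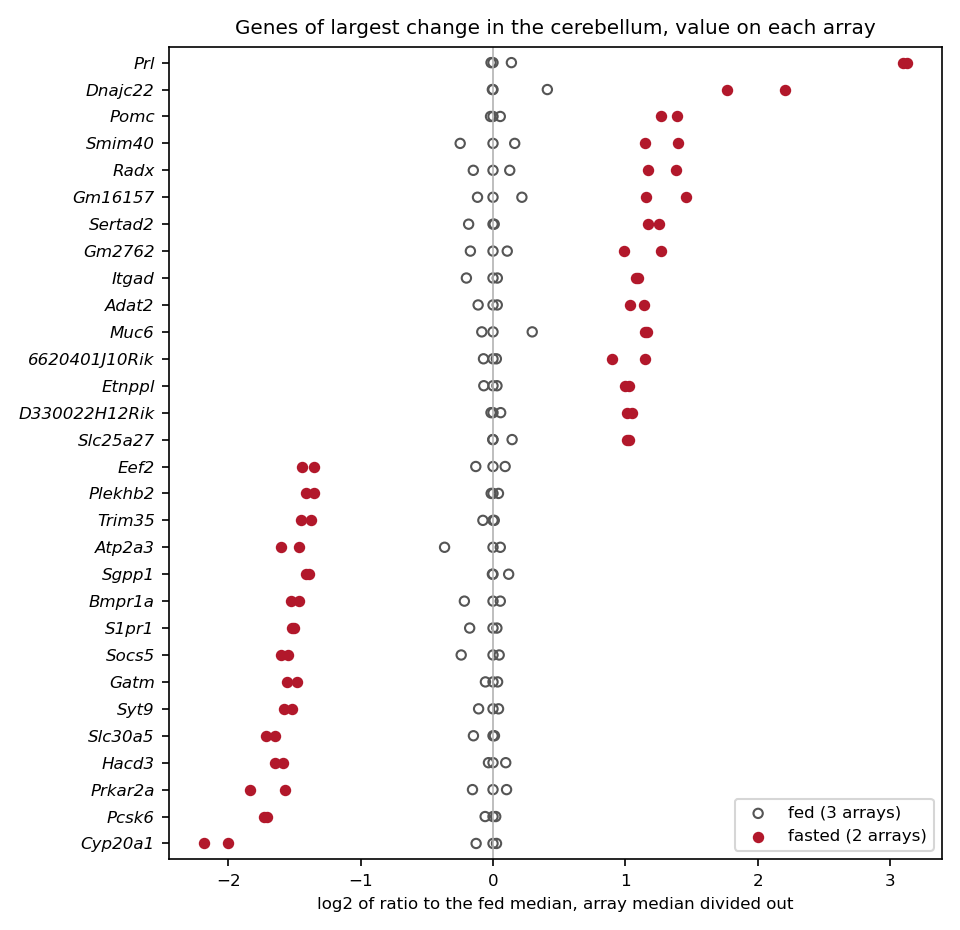
Each row is 1 of the 15 genes with the largest rise or the 15 with the largest fall, and each point is 1 array: open grey for the 3 fed arrays, red for the 2 fasted arrays. The horizontal axis is log2 of the ratio to the fed median after division by the array median. The red points of Prl, with a mean of 3.11, lie farthest to the right and those of Cyp20a1 farthest to the left, and in no row do the colours overlap, which the rule for these genes required.

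Among the 40 gene lists read here, the largest share of lower genes was that of the endoplasmic reticulum (ER), the compartment in which secreted and membrane proteins are folded. Of 21 measured ER chaperone and unfolded protein response genes, 10 fell and 0 rose, against 10.7% and 3.86% of all genes, and their median change was -0.29. Hyou1, a large chaperone of the lumen, read 1.00, 0.995 and 1.00 in the fed pool and 0.430 and 0.363 in the fasted pool, a change of -1.34 ± 0.08. Hspa5, the main lumenal chaperone (BiP), read 1.00, 1.00 and 0.899 against 0.549 and 0.533, a change of -0.84 ± 0.07 (adjusted p = 0.00694). Pdia4, a disulfide isomerase, read 1.06, 1.00 and 0.953 against 0.560 and 0.579, a change of -0.82 ± 0.06. These 3 were named under the conditions of the ranking above, which required that the groups not overlap.

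Canx, the membrane lectin calnexin that holds glycoproteins during folding, read 1.00, 1.08 and 0.955 against 0.421 and 0.425, a change of -1.26 ± 0.07, but its second probe read -0.13 and was not called. Smaller falls were called for Sdf2l1 (-0.64), Hsp90b1 (-0.44), Ero1b (-0.37, with a second probe at 0.17), Calr (-0.31), P4hb (-0.28) and Creld2 (-0.27). Of the stress branches, Ddit3, the death-associated transcription factor of this response stood at 0.11, Herpud1 at -0.04, Dnajc3 at 0.03 and Xbp1 at -0.29 with an adjusted p = 0.0679, and none of them was called. All 10 calls were made in the 11-array fit and 6 to 8 of them with 1 cerebellum array left out of it. In the 5-array fit 5 to 7 were called without 1 of the other arrays and 0 without fed replicate 1. For 6 of the 10 the fall differed from the change in hypothalamus by the interaction test, which called 6184 of 34999 probes (17.7%).

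**Figure D3:**
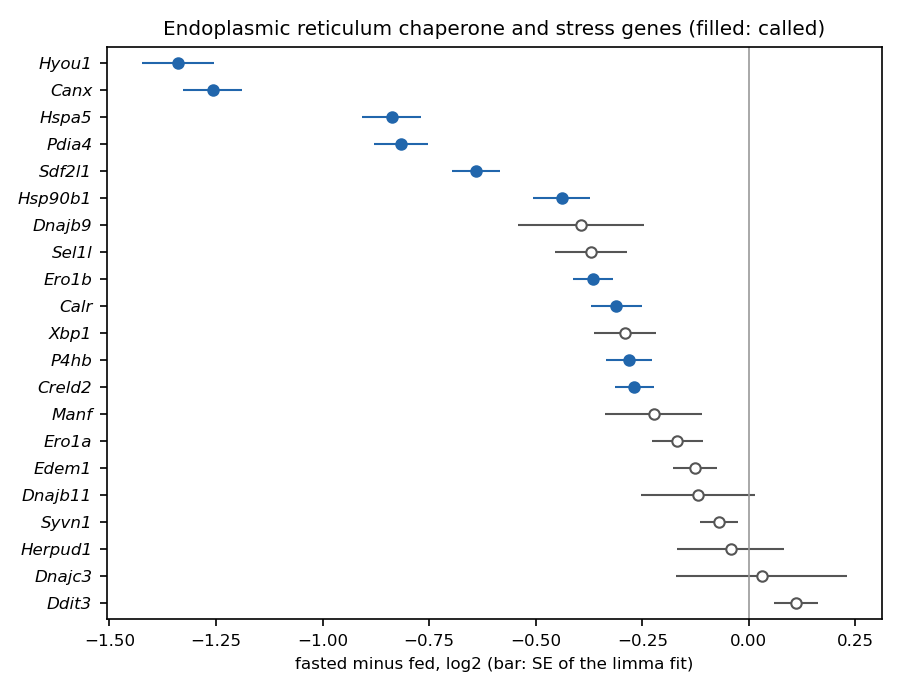
Change of the 21 measured ER chaperone and stress genes, fasted minus fed in log2 (horizontal axis), with the SE of the limma fit as a bar; filled blue points were called. The points run from Hyou1 at -1.34 to Ddit3 at 0.11, and 19 of 21 lie left of 0.

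Many promoters of this gene group carry the ER stress response element, a composite site whose CCAAT box and CCACG box lie on the same strand at a fixed spacing. Because 10 of the genes fell together, their RefSeq promoter windows (assembly GRCm38.p6, 250 bases before to 50 after the start of the gene) were searched on both strands for the letters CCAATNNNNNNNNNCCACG. This motif occurs in 39 of 32851 windows (0.119%). A window was given for 19 of the 21 genes, and 8 of these hold it: 6 of 9 genes that fell and 2 of 10 genes that were not called, Dnajc3 and Syvn1. Of the 6, Canx had a second probe at -0.13 that was not called, and Ero1b a second probe of positive sign. Pdia4 (-0.82), P4hb (-0.28) and Sdf2l1 (-0.64) fell and their windows do not hold these letters. Pdia4 thus fell about as much as Hspa5 (-0.84), which holds them. Of the genes that fell and hold the motif, 4 are shown, to set the larger falls of Hspa5 and of 1 probe of Canx beside the weaker ones of Hsp90b1 and Creld2. The 250 bases before their start are given 5′ to 3′ on the strand of the gene, with the motif in capitals. They lie at chr2:34771840-34772089 (plus strand, Hspa5), chr11:50325674-50325923 (minus strand, Canx), chr10:86705445-86705694 (minus strand, Hsp90b1) and chr15:88819396-88819645 (plus strand, Creld2).
Hspa5: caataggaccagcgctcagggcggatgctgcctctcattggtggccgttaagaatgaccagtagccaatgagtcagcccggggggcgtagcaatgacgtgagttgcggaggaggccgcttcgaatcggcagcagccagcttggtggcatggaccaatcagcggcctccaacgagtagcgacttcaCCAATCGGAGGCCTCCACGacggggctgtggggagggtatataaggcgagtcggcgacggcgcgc
Canx: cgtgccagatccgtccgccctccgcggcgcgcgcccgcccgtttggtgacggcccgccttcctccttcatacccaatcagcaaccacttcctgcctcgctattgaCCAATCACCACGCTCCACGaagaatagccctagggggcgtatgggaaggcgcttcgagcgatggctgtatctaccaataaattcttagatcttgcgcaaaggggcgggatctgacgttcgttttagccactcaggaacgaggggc
Hsp90b1: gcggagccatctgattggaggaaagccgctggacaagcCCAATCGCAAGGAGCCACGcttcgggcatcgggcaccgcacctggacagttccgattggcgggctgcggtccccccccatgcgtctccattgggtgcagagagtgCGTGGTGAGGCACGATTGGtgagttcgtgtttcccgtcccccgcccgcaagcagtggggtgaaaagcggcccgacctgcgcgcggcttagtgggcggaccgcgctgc
Creld2: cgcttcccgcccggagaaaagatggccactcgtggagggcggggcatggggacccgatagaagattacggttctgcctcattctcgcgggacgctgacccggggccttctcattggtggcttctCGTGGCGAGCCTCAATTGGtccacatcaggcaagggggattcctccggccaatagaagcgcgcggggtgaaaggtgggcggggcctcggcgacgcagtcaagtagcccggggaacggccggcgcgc
In Hspa5 the motif begins 65 bases before the start and in Canx 145 bases before it, both read in the direction of the gene. Hsp90b1 holds 2, which begin 212 and 107 bases before the start, the second on the opposite strand, and Creld2 holds 1 on the opposite strand at 126. A match of letters is a description of the window, and binding was not measured.

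The steps around ER folding also had lower genes, 24.2% of the translocation list and 19.4% of the coat list, against 10.7% of all genes. Of 33 genes for translocation into the ER and N-glycosylation, 8 fell and 2 rose (6.06%, against 3.86% of all genes, median -0.09). Sec61a1, the pore of the translocon, read 0.934, 1.03 and 1.00 against 0.525 and 0.539, a change of -0.89 ± 0.06. Both fasted arrays lay under every fed array, as the naming rule required, and by more than the fed arrays differed. Ssr3, a subunit of the translocon-associated complex, fell by 0.79 and Rpn2, a subunit of oligosaccharyltransferase, by 0.46. Ssr1 fell by 0.71, with a second probe at 0.27. Of 31 genes of the vesicle coats between ER and Golgi, 6 fell and 1 rose (median -0.09), led by the coatomer subunits Copg1 (-0.64 ± 0.06), Copb1 (-0.53 ± 0.07) and Copg2 (-0.49 ± 0.08) and by Sar1a (-0.44 ± 0.07), the GTPase that starts coats at the ER. With all 11 arrays fitted, 9 of the 10 translocation calls and 7 of the 7 coat calls were made, and 7 to 9 and 7 with 1 cerebellum array left out. In the 5-array fit 3 to 6 and 1 to 5 remained without 1 of the other arrays, and 0 without fed replicate 1.

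In the cytosol, 4 of 21 heat shock chaperone genes fell (19.0%, against 10.7% of all genes) and 0 rose (median -0.15). Hsph1 (Hsp110), a nucleotide exchange factor, read 1.00, 1.08 and 0.920 against 0.578 and 0.556, a change of -0.82 ± 0.08. Hspa4l, of the same family, fell by 0.65, Chordc1, a partner of Hsp90, by 0.41 and Hspb1, a small heat shock protein, by 0.39. Fasted arrays of all 4 lay below the fed arrays, which the rule for naming list members required. All 4 calls were made in the 11-array fit, with or without any 1 cerebellum array, while 0 to 4 were made in the 5-array fit with 1 array left out, 0 of them without fed replicate 1 or fasted replicate 1.

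Among 45 translation factors, 6 fell and 2 rose (13.3% and 4.44%, against 10.7% and 3.86% of all genes, median 0.01, and -0.12 with the 75th percentile scaling). Besides Eef2, Eif2ak1, the kinase that stops initiation when heme is short, read 1.00, 1.05 and 0.952 against 0.405 and 0.387, a change of -1.34 ± 0.06. Eif4g2, an initiation scaffold, fell by 0.61 with a second probe at -0.20, and Eif2ak3, the kinase (PERK) that stops initiation under ER stress, by 0.35. Of 59 ribosomal protein genes measured, 3 rose (5.08%) and 0 fell, and all changes lay between -0.17 and 0.50. Their median was 0.07, and -0.06 with the 75th percentile scaling. Rplp1 rose by 0.50 ± 0.06, Rpl3l, a form of muscle, by 0.49 ± 0.06, and Rpl17 by 0.30 ± 0.06, of which other probes read 0.32 and -0.04. Of the 8 translation factor calls 8 were made in the 11-array fit and 4 to 6 with 1 cerebellum array left out, and of the 3 ribosomal calls 3 and 2. The 5-array fit made 3 or 4 and 0 to 2 of them without 1 of the other arrays, and 0 without fed replicate 1.

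Of 39 proteasome subunits, which degrade marked proteins, 1 rose and 1 fell (2.56% each, against 3.86% higher and 10.7% lower among all genes): Psmd2, a subunit of the regulatory cap, read 1.00, 0.916 and 1.06 against 0.573 and 0.592, a change of -0.77 ± 0.08, and Psmd13 rose by 0.24. The proteasome median was 0.10, and -0.03 with the 75th percentile scaling, and in the 11-array fit Psmd13 was not called (adjusted p = 0.0924), which left 1 call with or without any 1 cerebellum array. Of 44 autophagy and lysosome genes 8 fell (18.2%, against 10.7%) and 0 rose (median -0.09). Atg12, a ubiquitin-like protein of the growing autophagosome, read 0.976, 1.01 and 1.00 against 0.648 and 0.599, a change of -0.67 ± 0.06. Atg13, of the complex that starts autophagy, fell by 0.48, Gaa, the lysosomal glucosidase for glycogen, by 0.52, and Atp6v1b2, a subunit of the proton pump, by 0.55, with a second probe at -0.02. The 8 calls were all made in the 11-array fit and 6 to 8 of them with 1 cerebellum array left out of it, against 1 to 6, or 0 without fed replicate 1, in the 5-array fit.

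Lipid synthesis held lower genes in each of its branches, against 10.7% lower among all genes. Of 27 genes of fatty acid synthesis and elongation 8 fell (29.6%) and 1 rose (median -0.11). Besides Hacd3, Srebf1, the transcription factor that turns on this pathway with insulin, read 1.02, 1.00 and 0.964 against 0.622 and 0.662, a change of -0.63 ± 0.06. Its second probe stood at -0.65 but varied more and was not called. Fads2, a desaturase of polyunsaturated fatty acids, fell by 0.67 with a second probe at -0.17, and Acly, which supplies acetyl-CoA, read 1.00, 1.02 and 0.926 against 0.658 and 0.676, a change of -0.56 ± 0.06. The gene that rose was the desaturase Scd3, at 0.35 ± 0.06.

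Cholesterol genes gave 5 lower and 1 higher of 20 (25% and 5%, against 10.7% and 3.86% of all genes, median -0.09). Sqle, the squalene epoxidase that catalyses an early committed step, read 1.00, 1.08 and 0.938 against 0.440 and 0.482, a change of -1.12 ± 0.08. Idi1, an isomerase of the isoprenoid steps, fell by 0.65 ± 0.06, with 0.982, 1.00 and 1.01 in the fed pool and 0.606 and 0.663 in the fasted pool. Srebf2, the transcription factor of the pathway, was called lower at -0.50 on 1 probe, but its other probes read 0.12 and 0.59 and the mean of its probes 0.07, so no direction can be given for the gene. Hsd17b7 was called higher at 0.39 and not in the 11-array fit (adjusted p = 0.0861). Of the 9 fatty acid calls 9 were made in the 11-array fit and 7 to 9 with 1 cerebellum array left out, and of the 6 cholesterol calls 5 and 5. In the 5-array fit 3 to 7 and 2 remained without 1 of the other arrays, and 0 without fed replicate 1.

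Sphingolipid enzymes, which make and break ceramides and the myelin lipids, gave 10 lower and 0 higher of 32 (median -0.14). The lower share was 31.25%, against 10.7% of all genes. Beside Sgpp1, the lyase Sgpl1, which destroys sphingosine 1-phosphate, read 0.991, 1.00 and 1.03 against 0.479 and 0.522, a change of -1.01 ± 0.06. The enzymes Sgpl1 and Sgpp1, which remove this lipid, and its receptor S1pr1 were thus lower in the fasted pool by 2.01-fold, 2.71-fold and 2.76-fold. Ugcg, which adds glucose to ceramide, read 1.00, 1.03 and 0.879 against 0.557 and 0.509 (-0.86 ± 0.09), and Ugt8a, which adds galactose in oligodendrocytes, 1.00, 1.08 and 0.993 against 0.614 and 0.550 (-0.82 ± 0.07). All 10 calls were made in the 11-array fit and 9 or 10 with 1 cerebellum array left out of it, against 4 to 8, or 0 without fed replicate 1, in the 5-array fit.

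Genes of fuel use were called in both directions. Of 33 genes of fatty acid oxidation and ketone body use 3 rose and 6 fell. These were 9.09% and 18.2%, against 3.86% and 10.7% of all genes. The median was 0.02, and -0.11 with the 75th percentile scaling. Plin4, a lipid droplet coat protein, read 0.908, 1.04 and 1.00 against 1.91 and 1.93, a change of 0.96 ± 0.07, with a second probe at 0.47 that was not called. Slc16a1, the transporter (MCT1) that carries lactate and ketone bodies across the brain endothelium, read 1.05, 1.00 and 0.996 against 0.527 and 0.529, a change of -0.95 ± 0.05 (adjusted p = 0.00521). Cpt1a and Cpt1b, forms of the enzyme that admits fatty acids to mitochondria, fell by 0.68 and 0.73, from fed ratios of 0.937 to 1.03 to fasted ratios of 0.581 to 0.633. In the 11-array fit 9 of the 9 calls were made and 7 to 9 with 1 cerebellum array left out, against 4 to 7, or 0 without fed replicate 1, in the 5-array fit. The respiratory chain showed 1 rise and 1 fall in 68 genes (1.47% each, against 3.86% and 10.7% of all genes). Its median was 0.03, and -0.11 with the 75th percentile scaling. Ndufab1 fell by 0.51, with a second probe at -0.10, and Atp5g2 rose by 0.28. Both were called in the 11-array fit and 1 or 2 with 1 cerebellum array left out of it. The 5-array fit with 1 array left out called 0 or 1 of them. Ndufa12 of the respiratory chain read 0.71 on a called probe and -0.04 on the probe that stands for the gene.

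Of 24 genes of glucose transport and glycolysis 6 fell (25%, against 10.7% of all genes) and 0 rose (median -0.14). Pfkfb2, which sets the level of the activator of phosphofructokinase, read 1.00, 1.02 and 0.909 against 0.390 and 0.414, a change of -1.28 ± 0.07, but its other probes read -0.02 and -0.24 and were not called. Ppp1r3c, which brings a phosphatase to glycogen, read 1.00, 1.01 and 0.963 against 0.471 and 0.458, a change of -1.10 ± 0.05. Hk2, an inducible hexokinase, fell by 0.60 and Pfkl, a phosphofructokinase, by 0.40. Glycogen synthase Gys1 (-0.38) and glycogen phosphorylase Pygb (-0.35), which make up the rest of the calls, were lower too. All 6 calls were made in the 11-array fit and 5 or 6 with 1 cerebellum array left out, against 3 or 4, or 0 without fed replicate 1, in the 5-array fit.

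Hormone and nutrient signals were read next. Of 32 glucocorticoid-induced genes 8 rose and 2 fell, against 3.86% and 10.7% of all genes, with a median of 0.04 that was -0.09 with the 75th percentile scaling. Sult1a1, a sulfotransferase, read 1.00, 1.00 and 0.984 against 1.55 and 1.79, a change of 0.74 ± 0.07, and Map3k6, a kinase, 0.998, 1.07 and 1.00 against 1.63 and 1.63, a change of 0.68 ± 0.05. The list shares Plin4 with that of fat oxidation. Rhob, a small GTPase, fell by 0.85. Targets often used to read this hormone in brain were not called, a set named here after its values were seen: Fkbp5 stood at -0.20, Tsc22d3 at -0.11, Sgk1 at -0.25 and Per1 at -0.08. All 10 calls were made in the 11-array fit, with or without any 1 cerebellum array, against 2 to 7, or 0 without fed replicate 1, in the 5-array fit.

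Insulin signalling and FoxO target genes gave 1 higher and 4 lower of 29 (3.45% and 13.8%, against 3.86% and 10.7% of all genes, median -0.02). Klf15, a transcription factor of fasting metabolism, fell by 0.66 ± 0.11 and Trib1 by 0.33, while Eif4ebp2, a brake on translation, rose by 0.31. Igfbp5 was called at -0.59 on 1 probe and read 0.06 on the other. Sesn1 read -1.08 on a called probe and -0.15 on the probe that stands for the gene. Among 28 amino acid response targets of Atf4, 2 rose and 4 fell (7.14% and 14.3%, median -0.07), and of those that fell the aminoacyl-tRNA synthetase genes Wars and Cars led. Wars read 1.00, 1.08 and 0.936 against 0.486 and 0.504, a change of -1.02 ± 0.08, and Cars fell by 0.62. Mthfd2, a mitochondrial enzyme of one-carbon metabolism, fell by 0.33. Vldlr, a receptor for reelin and lipoproteins, was called at 0.33 with a second probe at -0.18. With all 11 arrays fitted, 5 of 5 and 6 of 6 of these calls were made, and 3 to 4 and 5 with 1 cerebellum array left out. The 5-array fit made 0 to 3 and 2 of them without 1 of the other arrays, and 0 without fed replicate 1.

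Clock genes differed in direction among themselves. Of 21, 2 rose and 3 fell (9.52% and 14.3%, against 3.86% and 10.7% of all genes, median -0.08). Per3 read 1.00, 1.02 and 0.981 against 1.89 and 1.92, a change of 0.93 ± 0.05 (adjusted p = 0.00521), though other probes of Per3 read 0.33 and -0.34 and were not called. Per2, its paralog in the negative limb of the clock, read 1.00, 1.03 and 0.922 against 0.667 and 0.624, a change of -0.61 ± 0.07. Nr1d2, a repressor of the clock, fell by 0.81, with 0.998, 1.00 and 1.06 in the fed pool and 0.629 and 0.540 in the fasted pool, and Bhlhe40 fell by 0.62. Csnk1e, a kinase that marks Per proteins, rose by 0.40 ± 0.08. The core activators Arntl (-0.08) and Clock (-0.37) were not called. All 5 calls were made in the 11-array fit and 4 or 5 with 1 cerebellum array left out, against 1 to 4, or 0 without fed replicate 1, in the 5-array fit.

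Immediate early genes, which follow neuronal activity within minutes, gave 4 lower and 1 higher of 25 (16% and 4%, against 10.7% and 3.86% of all genes, median -0.01). Egr1 read 1.00, 0.892 and 1.00 against 0.606 and 0.579, a change of -0.70 ± 0.07. Dusp6, a phosphatase of the ERK pathway, fell by 0.86 ± 0.09, with 1.00, 1.08 and 0.919 against 0.534 and 0.563. Nr4a3, an orphan nuclear receptor, fell by 0.69, with a second probe at 0.05, and Homer1, a scaffold of synapses, by 0.65. Junb rose by 0.45 ± 0.07, and Fos stood at -0.06 and was not called. All 5 calls were made in the 11-array fit and 4 or 5 with 1 cerebellum array left out, against 3 or 4, or 0 without fed replicate 1, in the 5-array fit.

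Of 26 measured peptide and receptor genes of feeding and energy balance, 1 rose, Pomc (3.85%), and 2 fell (7.69%), against 3.86% and 10.7% of all genes, so the list was called about as often as genes in general (median -0.02). Cartpt, which encodes a peptide that lowers food intake, read 1.02, 1.00 and 0.909 against 0.616 and 0.672, a change of -0.60 ± 0.08 (adjusted p = 0.0155). Apoa4, an apolipoprotein linked to satiety, was the other, named after its values were seen because it was too unsteady for the naming rule. It read 1.00, 0.838 and 1.89 in the fed pool and 0.221 and 0.145 in the fasted pool, a change of -2.71 ± 0.41 (adjusted p = 0.0220). Npy, which drives eating, read 1.00, 1.03 and 0.845 against 0.773 and 0.851, and with a change of -0.24 ± 0.11 it was not called (adjusted p = 0.224). Its fasted arrays overlapped the lowest fed array. All 3 calls were made in the 11-array fit, with or without any 1 cerebellum array, and 1 to 3, or 0 without fed replicate 1, in the 5-array fit.

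Thyroid hormone genes gave 1 higher and 3 lower of 15 (6.67% and 20%, against 3.86% and 10.7% of all genes, median 0.01, and -0.12 with the 75th percentile scaling). Hr, a corepressor that thyroid hormone induces in the cerebellum, fell by 0.47 ± 0.04, from 1.00, 1.01 and 0.983 to 0.724 and 0.720. Slc16a10, a transporter of the hormone, rose by 0.42, while Rxrg fell by 0.27 and Nrgn by 0.23. In the 11-array fit 3 of the 4 were called, not Nrgn (adjusted p = 0.0692), and 2 or 3 with 1 cerebellum array left out, against 0 to 2, or 0 without fed replicate 1, in the 5-array fit.

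Among the lists of neuronal function, that of neurotransmitter release had the largest share of lower genes, 33.3%. Of 45 synaptic vesicle genes 15 fell and 2 rose, against 10.7% and 3.86% of all genes, with a median of -0.15. Syt1, the calcium sensor of fast release, read 0.977, 1.01 and 1.00 against 0.413 and 0.410, a change of -1.27 ± 0.04, or 2.42-fold (adjusted p = 0.00521). Vamp1, a vesicle SNARE, read 1.00, 1.03 and 0.907 against 0.455 and 0.487, a change of -1.05 ± 0.08. Sh3gl2 (endophilin), which shapes recycling vesicles, fell by 1.07, and Nsf, which takes spent SNARE complexes apart, by 1.00, although a second probe of Nsf read 0.22. For all 4 (Syt1, Vamp1, Sh3gl2, Nsf) the fasted arrays lay between 0.410 and 0.492. Slc17a6, the vesicular glutamate transporter of the deep nuclei, was called at 0.36 on 1 probe and at -0.40 on another, so its direction is not settled. With all 11 arrays fitted, 16 of the 17 calls were made and 15 or 16 with 1 cerebellum array left out, against 6 to 13, or 0 without fed replicate 1, in the 5-array fit.

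Ion channels went both ways. Of 38 genes of voltage-gated and related potassium channels 3 rose (7.89%) and 7 fell (18.4%), against 3.86% and 10.7% of all genes. Their median was -0.06. Kcnab1, a beta subunit, read 1.01, 1.00 and 0.925 against 0.494 and 0.490, a change of -0.99 ± 0.06, with other probes at -0.28 and 0.04. Kcna1, the channel of the basket cell terminals around Purkinje cells, rose by 0.57 ± 0.08, while Kcna3 of the same family fell by 0.56. Kcnma1, the large-conductance calcium-activated channel of Purkinje cells, was called at 0.48 and on a second probe at -0.45, so the probes of this gene disagree. Of 34 genes of sodium and calcium channels and calcium stores 3 rose (8.82%) and 7 fell (20.6%), with a median of -0.09. Besides Atp2a3, Fgf14, an intracellular partner of sodium channels that is mutated in a spinocerebellar ataxia, read 1.01, 1.00 and 0.936 against 0.504 and 0.534, a change of -0.92 ± 0.06. Cacna1g, the T-type calcium channel of Purkinje cells and deep nuclei, fell by 0.78 and Cacnb2, a calcium channel beta subunit, by 0.71.

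Of 32 GABA and glutamate receptor genes 6 fell (18.8%, against 10.7% of all genes) and 0 rose (median -0.08). Gabbr1, a subunit of the GABA-B receptor, read 1.00, 1.06 and 0.977 against 0.483 and 0.478, a change of -1.07 ± 0.06 on 1 probe, with other probes at 0.10 and -0.12. Grm8, a presynaptic glutamate receptor, fell by 0.65, Grik1, a kainate receptor subunit, by 0.61 and Gabra2 by 0.58, each on its only probe. In the 11-array fit 10 of 10 potassium channel, 9 of 10 sodium and calcium and 6 of 6 receptor calls were made, and 8 to 10, 8 to 9 and 4 to 5 with 1 cerebellum array left out. The 5-array fit made 1 to 5, 2 to 6 and 1 to 3 of them without 1 of the other arrays and 0 without fed replicate 1.

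Of 51 splicing factor genes 14 fell (27.5%) and 1 rose (median -0.07), against 10.7% and 3.86% of all genes. Ptbp2, the neuronal polypyrimidine tract binding protein, read 1.02, 1.00 and 0.940 against 0.433 and 0.432, a change of -1.19 ± 0.06, and Hnrnpu, a nuclear matrix and RNA binding protein, 1.00, 1.03 and 0.996 against 0.495 and 0.464, a change of -1.07 ± 0.05. Sf1, which recognises the branch point, fell by 0.73. Rbfox2, the gene that rose, read 1.01, 1.00 and 0.945 against 1.76 and 1.75, a change of 0.84 ± 0.05, and its second probe read -0.10. Tra2a of this list read 1.07 on a called probe and -0.08 on the probe that stands for the gene. All 15 calls were made in the 11-array fit and 12 to 14 with 1 cerebellum array left out, against 5 to 11, or 0 without fed replicate 1, in the 5-array fit.

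**Figure D4:**
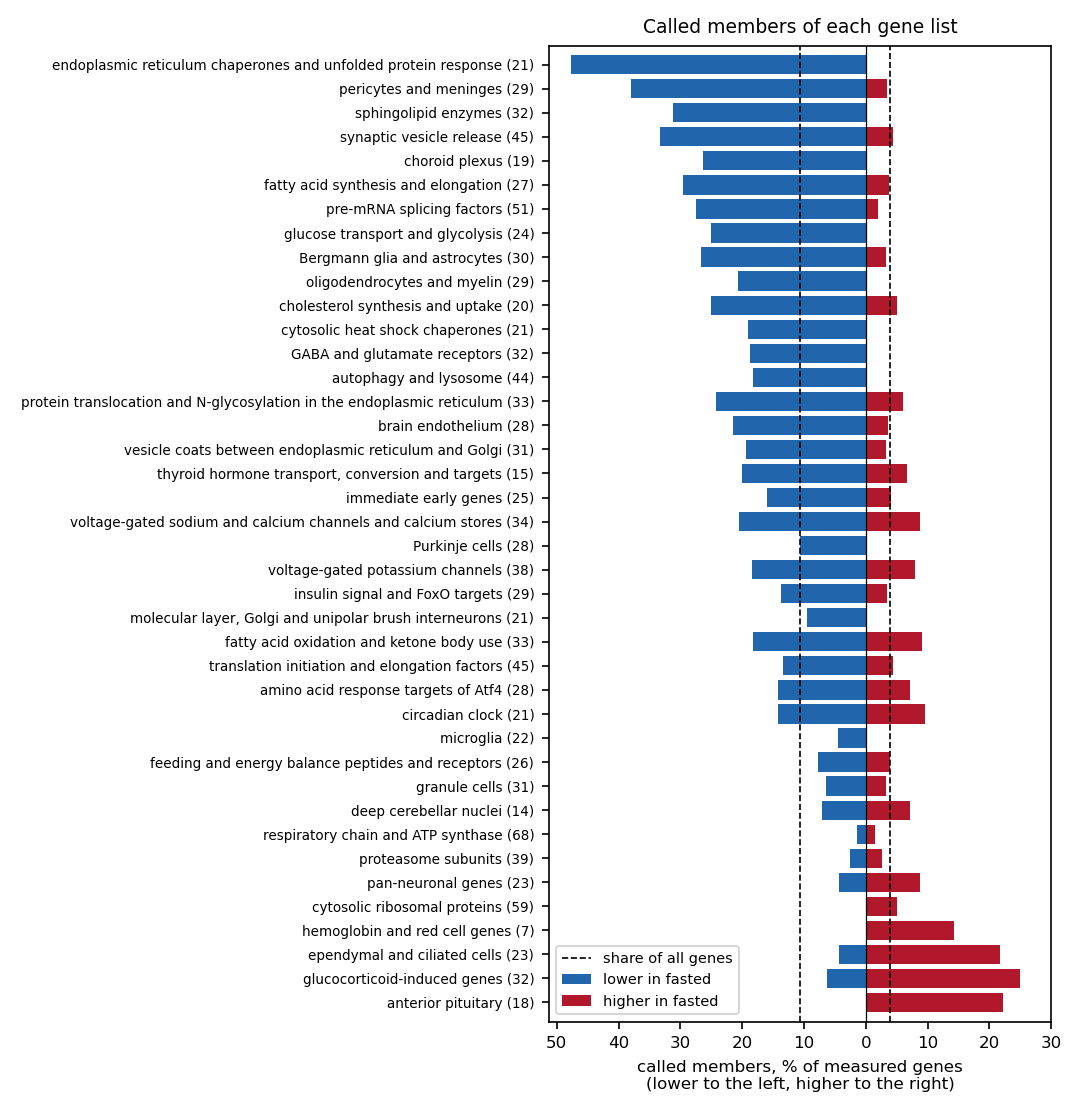
Share of measured genes of each list (number in brackets) called lower (blue, to the left) and higher (red, to the right) in the fasted pool, in % of the measured genes. Dashed lines mark the shares of all genes, 10.7% lower and 3.86% higher; ER chaperones reach 47.6% lower, and glucocorticoid-induced genes, with 25%, have the largest share of higher genes.

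In each list of neuron markers the share of lower genes was near or below that of all genes. Of 28 Purkinje cell genes 3 fell (10.7%, the same as the 10.7% of all genes) and 0 rose (median -0.07): Cacna1g, Stk17b (-0.53 ± 0.06) and Inpp5a (-0.24 ± 0.05). Pcp2 (-0.01) and Calb1 (-0.08), which define the cell type, were not called and are named here after their values were seen. In hypothalamus Pcp2 and Cbln3, both genes of cerebellar neurons, read 1.54 and 1.88 in the same contrast, and the part of cerebellar RNA in differences between the regions was not tested. Of 31 granule cell genes 1 rose and 2 fell (3.23% and 6.45%, against 3.86% and 10.7% of all genes, median -0.05). Cbln3, a synaptic organiser of granule cells, read 1.00, 1.08 and 0.945 against 0.560 and 0.585, a change of -0.81 ± 0.07, with a second probe at -0.11. Mab21l1 fell by 0.66 and Barhl2 rose by 0.24. Inhibitory and unipolar brush interneuron genes gave 0 higher and 2 lower of 21 (9.52%, median -0.06). Eomes of unipolar brush cells stood at -0.36, with a second probe called at -0.43. Slc6a5, the glycine transporter of Golgi cells, stood at -0.22. The deep nuclei list gave Slc6a5 and Slc17a6 as its 2 calls of 14 (7.14% each way, median -0.10). General neuronal genes gave 2 higher, Elavl3 (0.32) and Uchl1 (0.30), and 1 lower, Syt1, of 23 (8.70% and 4.35%, median -0.02). With all 11 arrays fitted, 3, 3, 1, 1 and 3 of the calls of these 5 lists were made in the order given, and 3, 2 to 3, 1, 1 and 1 to 3 with 1 cerebellum array left out, against 0 to 2 in the 5-array fit with 1 array left out, 0 without fed replicate 1.

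Of the glial lists, that of Bergmann glia and astrocytes had the largest share of lower genes, 26.7% against 10.7% of all genes. Of its 30 genes 8 fell and 1 rose. The median was -0.11, and -0.02 with the mean of all probes of a gene, which is the -0.02 of all genes. Gja1, the main gap junction protein of astrocytes, read 0.921, 1.00 and 1.03 against 0.494 and 0.524, a change of -0.95 ± 0.07. Slc1a3, the glutamate transporter of Bergmann glia, read 0.995, 1.07 and 1.00 against 0.648 and 0.681, a change of -0.62 ± 0.06, and Tnc (-0.70 ± 0.06) and Fabp7 (-0.66 ± 0.11), also genes of Bergmann glia, fell with them. Agt, angiotensinogen of astrocytes, rose by 0.45. Of the 30 changes 12 were above 0 and 18 below, and with the mean of all probes 2 genes were called higher and 8 lower. Slc1a2 of this list read 1.44 on a called probe and -0.12 on the probe that stands for the gene. Of 29 oligodendrocyte and myelin genes 6 fell (20.7%) and 0 rose (median -0.08), among them Ugt8a, Olig1 (-0.48), Tspan2 (-0.44) and Mobp (-0.40). Of 22 microglia genes 1 fell (4.55%), Itgam at -0.49 (median -0.07). In the 11-array fit 9 of 9, 6 of 6 and 1 of 1 of these calls were made, and 7 to 9, 6 and 1 with 1 cerebellum array left out, against 0 in the 5-array fit without fed replicate 1.

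Genes of the meninges and of pericytes, which a slice of cerebellum carries on its surface and along its vessels, gave 11 lower and 1 higher of 29 (37.9% and 3.45%, against 10.7% and 3.86% of all genes, median -0.13). Ogn, a small leucine-rich proteoglycan, read 0.974, 1.00 and 1.06 against 0.371 and 0.404, a change of -1.38 ± 0.07. Fmod, of the same family, read 1.00, 1.00 and 0.998 against 0.544 and 0.521 (-0.91 ± 0.05) and the collagen gene Col1a2 1.01, 1.00 and 0.908 against 0.599 and 0.543 (-0.77 ± 0.08). The transporter Slc47a1 fell by 0.66. Rgs5, a gene of pericytes, rose by 0.59 ± 0.11, while the changes of 25 of the 29 genes were negative and those of 4 positive. In hypothalamus 14 genes of this list were higher in the fasted pool and 0 lower, and the change of 11 of the 12 genes called here differed between regions, that of Ogn by -1.87 and that of Fmod by -1.28. The part of tissue carried over at dissection in these values was not tested.

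Genes of the choroid plexus, which lines the fourth ventricle under the cerebellum, gave 5 lower (26.3%, against 10.7% of all genes) and 0 higher of 19, with a median of -0.28. Kl (klotho) read 1.00, 1.05 and 0.938 against 0.637 and 0.630, a change of -0.65 ± 0.07, and Ecrg4 (-0.40), Otx2 (-0.31) and Msx1 (-0.29) fell less. Ttr, the most abundant transcript of this tissue and named after its values were seen, read 1.00, 0.975 and 1.02 against 0.889 and 0.951 and was not called (-0.12 ± 0.06). Of 28 endothelial genes 6 fell (21.4%) and 1 rose, with a median of -0.13 that was -0.06 with the mean of all probes of a gene. Pecam1, an adhesion protein between endothelial cells, fell by 0.86 ± 0.08 and Tfrc, the transferrin receptor, by 0.84 ± 0.07, with ratios of 1.02, 1.00 and 0.918 against 0.529 and 0.563, while Tek fell by 0.49 and Tie1 by 0.39. Red cell genes gave 1 rise among 7 (14.3%, against 3.86% of all genes), Alas2 at 0.34. Alas2 was also called in the 11-array fit, with or without any 1 cerebellum array, and in no 5-array fit with 1 array left out. The median of the red cell genes was 0.02, and -0.11 with the 75th percentile scaling.

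Ependymal and ciliated cell genes had more higher than lower calls, 5 and 1 of 23. These were 21.7% and 4.35%, against 3.86% and 10.7% of all genes. The median was 0.16, and 0.03 with the 75th percentile scaling. Enkur, a protein of motile cilia, read 0.826, 1.03 and 1.00 against 1.38 and 1.36, a change of 0.54 ± 0.11, and Ak7 (0.43 ± 0.09) and 1110017D15Rik (0.41 ± 0.05) rose as well. Dnah11, a dynein of cilia, fell by 0.88 ± 0.07, from 1.05, 1.00 and 0.912 to 0.538 and 0.530. Foxj1, which switches on this programme, stood at 0.15 and was not called. For meninges, choroid plexus, endothelium and ependyma, 11 of 12, 4 of 5, 7 of 7 and 6 of 6 calls were made in the 11-array fit, and 10 to 11, 3 to 4, 5 to 7 and 4 to 5 with 1 cerebellum array left out. The 5-array fit made 6 to 10, 0 to 3, 2 to 4 and 1 to 3 of them without 1 of the other arrays and 0 without fed replicate 1.

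How far a single probe speaks for its gene could be read where 1 gene had several. For 209 probes of 199 genes that were called lower by at least 1.5-fold, another probe of the same gene was on the array. The median change of the called probes was -0.79 and that of the other probes -0.12. The other probe was called lower in 40 pairs (19.1%), called higher in 11 and not called in 158, and 68.4% of the other probes had the same sign. All pairs come from the 21590 probes with 1 symbol, of which 2215 were called lower. Taken as genes, 10.7% were called lower. Over all probes, named or not, the share was 7.57%. Since the first probe of each pair was chosen for its size, some shrinkage of the second is built into the choice. For 75 probes of 73 genes called higher, the medians were 0.77 and 0.02, and 56.0% shared the sign. The other probe was called higher in 7 pairs (9.33%) and lower in 7. Of the 21590 probes with 1 symbol 838 were called higher, and taken as genes 3.86%. Over all probes, named or not, 6.46% were called higher.

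Agreement was close for some genes and absent for others, both kinds named after their values were seen. The probes of Ahcyl1, an inhibitor of the inositol trisphosphate receptor, read -1.17 and -1.15, those of Rif1, a telomere and replication timing protein, -1.29 and -1.01, and those of the helicase gene Recql -1.11 and -0.75. By contrast Kcnd3, a potassium channel of granule cells and interneurons, read -1.59 and -0.06, Fasn, fatty acid synthase, -1.39 and -0.11, Ywhag -1.39 and -0.05, and Slc1a2, a glutamate transporter of astrocytes, 1.44 and -0.12. The probes of Inhbb, an inhibin subunit, read -1.13 and 1.80 and were called in opposite directions. Probe positions on the transcripts are not known here, and whether such pairs measure different transcripts was not tested.

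**Figure D5:**
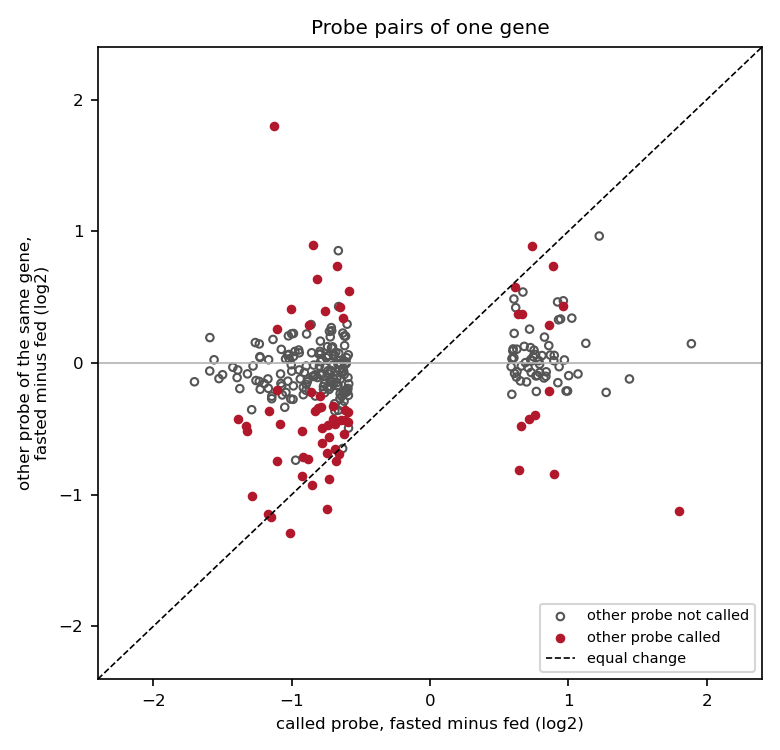
Each of the 284 points is a pair of probes of 1 gene: the probe called at 1.5-fold or more (horizontal axis, change in log2) and the other probe of that gene with the smallest residual SD (vertical axis, change in log2), filled red where the other probe was called too. Most points lie near 0 on the vertical axis and far from the dashed line of equal change, as the medians of -0.12 and 0.02 of the other probes state.

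The genes with the largest changes were set against the same contrast in hypothalamus. The change in cerebellum differed from that in hypothalamus for all 15 of the genes that fell most and for 9 of the 15 that rose most, by the interaction test of limma over all 11 arrays, which called 17.7% of all probes. These genes were picked for their size in cerebellum, which favours a difference. The 15 lower genes stood between -0.40 and 0.21 in hypothalamus, and Slc30a5 at 0.21 and Eef2 at 0.03 lay on the other side of 0. Pomc changed by 0.06 in hypothalamus against 1.32 in cerebellum, and Sertad2 by -0.27 against 1.27. Prl rose in both regions, by 3.60 in hypothalamus, and the difference of -0.53 between them passed the test. Adat2 rose in both regions too, by 1.11 and 0.91, and that difference did not pass (0.21 ± 0.09, adjusted p = 0.133).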

How the data were processed

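The deposited series table holds 1 ratio per probe and array. That the deposited ratio is linear, with the fed median of its region as the denominator the authors chose, was read from the values: this median was 1 for all 34999 probes within 1e-06. Which software and background steps came before it is not given in the sources used here. Deposited ratios ran from 0.01 to 7422.23 over the 5 cerebellum arrays, and 0 values of the 11 arrays of the series were missing. After division of each array by its median and a floor at 0.1, the log2 was formed. limma 3.58.1 (R 4.3.3) was fitted to 2 fasted and 3 fed arrays by lmFit and eBayes, with 3 residual and 1.70 prior degrees of freedom, and two-sided p-values were adjusted by Benjamini-Hochberg over all probes. An exact permutation test of 2 against 3 cannot go below p = 0.1, so none is given. The number of arrays limits the precision. The function was tested on simulated data.

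Gene names came from the platform annotation: 21590 probes had 1 symbol, 681 several and 12728 none, giving 18048 genes, 2998 of them with more than 1 probe. Of the probes with 1 symbol 21462 matched RefSeq by gene identifier. Promoter windows are those of RefSeq, assembly GRCm38.p6. A gene stands for the probe with the smallest residual SD, which favours small errors. The named genes are the 15 with the largest change each way among called genes whose arrays do not overlap, with no array under 0.1 and a range of at most 0.5 log2 within a group, up to 4 called members of each of 40 lists under the same conditions, and Npy, Pomc, Cartpt and Prl. Members and lists were chosen with earlier results of these data known, so no list was tested. Differences from hypothalamus were tested as an interaction over all 11 arrays.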

Additional observations from a re-analysis of the deposited data

Results flagged for a closer look

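For 24 of the 30 genes with the largest changes in cerebellum, the change differed from that of the same contrast in hypothalamus by the interaction test of limma over all 11 arrays, with adjusted p between 3.27e-05 and 0.0217. Each value below is the change in cerebellum minus the change in hypothalamus, in log2, and rests on repeats of pooled RNA.

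Among genes higher in cerebellum, Prl differed by -0.53 ± 0.10, since it rose more in hypothalamus. Pomc differed by 1.26 ± 0.07 and Slc25a27 by 1.27 ± 0.07. The difference was 1.54 for Sertad2, 1.38 for D330022H12Rik, 1.30 for 6620401J10Rik and 1.15 for Radx. It was 0.52 for Etnppl, which stood at 0.50 in hypothalamus, and 0.44 for Itgad, which stood at 0.70 there.

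Among genes lower in cerebellum, the difference was -1.84 ± 0.08 for Slc30a5, -1.80 ± 0.10 for Cyp20a1 and -1.67 ± 0.09 for Pcsk6. The enzyme genes Hacd3, Sgpp1 and Gatm differed by -1.54, -1.39 and -1.34. Of the signalling genes, Prkar2a differed by -1.47, Socs5 by -1.22, Bmpr1a by -1.16 and S1pr1 by -1.06. The remaining differences were -1.44 for Syt9, -1.42 for Eef2, -1.39 for Atp2a3, -1.30 for Trim35 and -1.02 for Plekhb2.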

How the results depend on the processing

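Against 4912 called probes, the 75th percentile scaling called 8564 and fits with each array left out in turn called 0 to 3175. Quantile normalization gave 0, with 2224 probes at an unadjusted p under 0.05 by limma. Against 1396 probes called at 1.5-fold or more, quantile normalization called 0 and fits with each array left out called 0 to 1686. The labels link same-numbered arrays by a number alone, and the correlation of their deviations was 0.04 and -0.02. With 2 fasted arrays, whose deviations are opposite, these correlations cannot exclude a shared batch. The fit of 5 arrays with the replicate number as a block kept 1 residual degree of freedom and gave 0 and 0 calls, with 8445 probes at an unadjusted p under 0.05. That block in the 11-array fit gave 7320 and 1542. Quantile normalization over all 11 arrays lowered the genes that differ from hypothalamus from 24 to 15. Taking the probe with the smallest SD in hypothalamus reversed Gm16157 (-0.22), Ssr1 (0.27), Srebf2 (0.12), Igfbp5 (0.062), Vldlr (-0.18) and Rpl17 (-0.040), and the mean of all probes reversed Srebf2 (0.073) and Slc17a6 (-0.020), since the probes of these genes disagree. The cause of the other shifts was not tested. Of 159 named genes, 158 were called, and 158 lost the call with quantile normalization, with the block in 5 arrays and without fed replicate 1. The other settings lost 22 without fed replicate 3, 52 without fasted replicate 2, 69 without fed replicate 2, 74 without fasted replicate 1, 15 with the 75th percentile scaling, 8 in the 11-array fit, 8 with the block in it, 9 with the mean of all probes, 7 with the probe of smallest SD in hypothalamus, 5 without scaling, 3 with a variance trend, and 0 with no floor, a filter on extreme ratios or a robust prior. Omitting 1 array from the 11-array fit, chosen after seeing the data, lost 12 to 17. Ratios keep no signal, so limits near background are unknown.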

Other observations

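Some genes of the lists had values too unsteady to be called. Cfap43, a gene of motile cilia, read 1.00, 0.976 and 87.1 in the fed pool and 1941 and 2229 in the fasted pool, so fed replicate 3 stood far from the other fed arrays (adjusted p = 0.0680 by limma). Hba-x, an embryonic globin, read 0.759, 1.00 and 2.41 against 5.37 and 5.78, a change of 2.19 ± 0.52 (adjusted p = 0.0605). Gal, the neuropeptide galanin, read 1.00, 1.21 and 0.919 against 0.547 and 0.210, a change of -1.61 ± 0.43 (adjusted p = 0.0784).

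Direction also moved with how variable a probe was in hypothalamus, arrays that this contrast did not use. Over 5 equal groups of probes, from the steadiest to the least steady, the median change was -0.03, -0.01, -0.00, 0.02 and 0.08, and higher probes made up 41.5%, 41.7%, 45.6%, 50.9% and 62.5% of the calls. The share of probes with 1 symbol fell from 65.7% in the steadiest group to 53.1% in the least steady. In each of the 5 groups the median change was larger for probes without 1 symbol than for those with one, 0.03 against -0.05 in the steadiest and 0.11 against 0.05 in the least steady. These are values of 2 pools, and their cause was not tested.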
